A study of Mus musculus with 16 samples.

Results

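Rab GTPases are small proteins that switch between a GTP-bound and a GDP-bound state and, in the GTP-bound state, recruit the proteins that bud, move, tether and fuse membrane vesicles. Each Rab works at its own set of membranes, so that the family as a whole covers traffic from the endoplasmic reticulum through the Golgi, endosomes and lysosomes to the plasma membrane. In neurons, Rab3 and Rab27 members attach to synaptic and secretory vesicles, while endosomal members sort receptors that are taken up from the cell surface. Here the Rab genes were followed in mitral cells, which carry the output of the olfactory bulb to the cortex. A gene was counted as a member when its symbol, found through the RefSeq accession of its probe, was Rab followed by a number and at most 1 letter and 1 further digit. This left out Rab-like genes and the genes of Rab-binding proteins. The array named 57 such genes by 80 probes, and 48 of them could be tested among 12035 tested named genes and 21070 tested features in all.

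The mice were of the ICR strain. Bulbs had received plasmids by in utero electroporation at embryonic day 12, with expression driven by the CAG promoter, which is active in most cell types. The 4 groups were P6 Kir2.1 cells and P6 control cells, taken at postnatal day 6, and P3 Kir2.1 cells and P3 control cells, taken at postnatal day 3. Kir2.1 cells carried EYFP together with Kir2.1, a potassium channel whose current makes neurons harder to excite, and control cells carried EYFP alone. Per the labels, fluorescent cells were picked by hand, their cDNA was amplified by 30 PCR cycles, and cells positive for EYFP and for pcdh21 (Cdhr1, which marks projection neurons of the bulb) were kept. Each group held 4 arrays, and each array held the cDNA of 10 cells. The labels number these pools as replicates but do not say that they are from separate animals. All p-values therefore rest on pool-to-pool spread, which may in part be technical. In such pools fewer cells of a type and less RNA per cell cannot be told apart.

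Between 34.3% and 41.1% of probes lay well above background on an array. Cdhr1 was bright in every pool, with means of 3.75 ± 0.25 in P6 Kir2.1, 3.08 ± 0.33 in P6 control, 2.75 ± 0.43 in P3 Kir2.1 and 3.31 ± 0.33 in P3 control cells (SD, n = 4 each). The probe of Kcnj2, which encodes Kir2.1, stayed at background on all 16 arrays. Nothing shows that this probe detects the plasmid's cDNA, and so it checks no label. At P6, markers of other cells differed between the groups. Interneuron markers (10 of 13 listed tested) had mean levels of -6.83 to -4.02 in P6 Kir2.1 pools and -3.48 to -1.15 in P6 control pools, and 9 of 10 were lower with Kir2.1. The 5 tested microglial markers of 8 ranged from -7.56 to -5.96 in P6 Kir2.1 pools and from -6.08 to -2.49 in P6 control pools, and the 6 tested astrocyte and radial glia markers of 8 from -6.46 to -3.65 and from -4.54 to -2.29 in the same order of groups. Of the 8 listed microglial markers, C1qa, C1qc and Cx3cr1 stayed at background on every P6 Kir2.1 array. At P3, C1qa did so on every array of both groups, C1qc on every Kir2.1 array and Cx3cr1 on every control array. Vascular and blood markers (5 of 9 listed tested) went the other way, with 4 of 5 higher with Kir2.1. They ranged from -8.22 to -2.37 in P6 Kir2.1 pools and from -7.22 to -6.00 in P6 control pools. Ensheathing cell markers ranged from -5.88 to -0.55 and from -3.63 to -1.04 in the same order of groups. Mitral and tufted markers ranged from -1.59 to -0.06 in P6 Kir2.1 pools and from -2.27 to -1.30 in P6 control pools. P6 control pools 1 and 3 had the highest microglial levels, and results at P6 are also given without both, an alternative chosen after seeing the data. The P3 arrays lay on 1 slide and the P6 arrays on another, which means that slide and age cannot be told apart, and on each slide Kir2.1 and control pools lay in different rows.

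Values are log2 signals minus the 75th percentile of their array, taken over probes well above background on all arrays. A value of 0 thus equals that percentile, and a positive difference means higher signal in the group named first. Changes are differences of group means with the standard error of limma, a linear model fitted to all 16 arrays at once. Adjusted p-values are from limma after Benjamini-Hochberg adjustment over all 21070 features of a comparison, with a threshold of 0.05. Levels of different Rab genes come from different probes and are not compared with each other.

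Most Rab genes were measurable in mitral cells. Signal lay well above background on all 16 arrays for 32 of the 48 tested members. By role, these were 4 of 8 members for regulated secretion and synaptic vesicles, 8 of 14 for traffic between endoplasmic reticulum and Golgi and within the Golgi, 5 of 9 at early endosomes, 9 of 13 for recycling and exocytosis, 3 of 8 at late endosomes, lysosomes and related organelles, 1 of 3 linked to the cilium, and both Rab40 genes. The 9 members that were not tested were dim nearly everywhere. Rab13, Rab20 and Rab32 stayed at background throughout, Rab19, Rab25, Rab27a and Rab38 were on 1 array each, Rab7b on 2 and Rab17 on 3. Rab32, Rab38 and Rab27a serve melanosomes and related organelles of pigment and blood cells, and Rab17 and Rab25 are known from epithelia.

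The comparison of Kir2.1 with control asked which Rab genes differ when mitral cells are silenced. At P6, 2 of 48 Rab genes (4.17%) passed the threshold, where 1.76% of all features did. Both were higher in Kir2.1 cells, as were 0.864% of all features, and 0 were lower, as were 0.892% of all features. At P3, 0 of 48 passed with limma, where 0.00949% of all features did (0.00475% higher and 0.00475% lower), and 4 had an unadjusted p under 0.05 (8.33% against 6.53% of all features). Over the mean of both ages, 1 rose and 1 fell, together 4.17% of members against 0.712% of all features (0.422% higher and 0.29% lower). Across the family the changes went both ways. The median absolute change was 0.59 at P6 and 0.55 at P3, against 0.62 and 0.43 over all features. The median change was 0.10 at P6, with 28 members higher and 20 lower, and -0.26 at P3, with 17 higher and 31 lower. The medians over all features were -0.13 at P6 and -0.03 at P3. Under other scalings the P6 median of the Rab genes lay between 0.17 and 0.31. That of all named genes lay between 0.02 and 0.12 there, against -0.09 under the main scaling. Under normexp background correction the P6 medians were 0.02 for the Rab genes and -0.20 for all named genes. At an unadjusted p under 0.05, 8 members stood out at P6 (16.7% against 17.5% of all features), so that share was near the background.

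**Figure D1:**
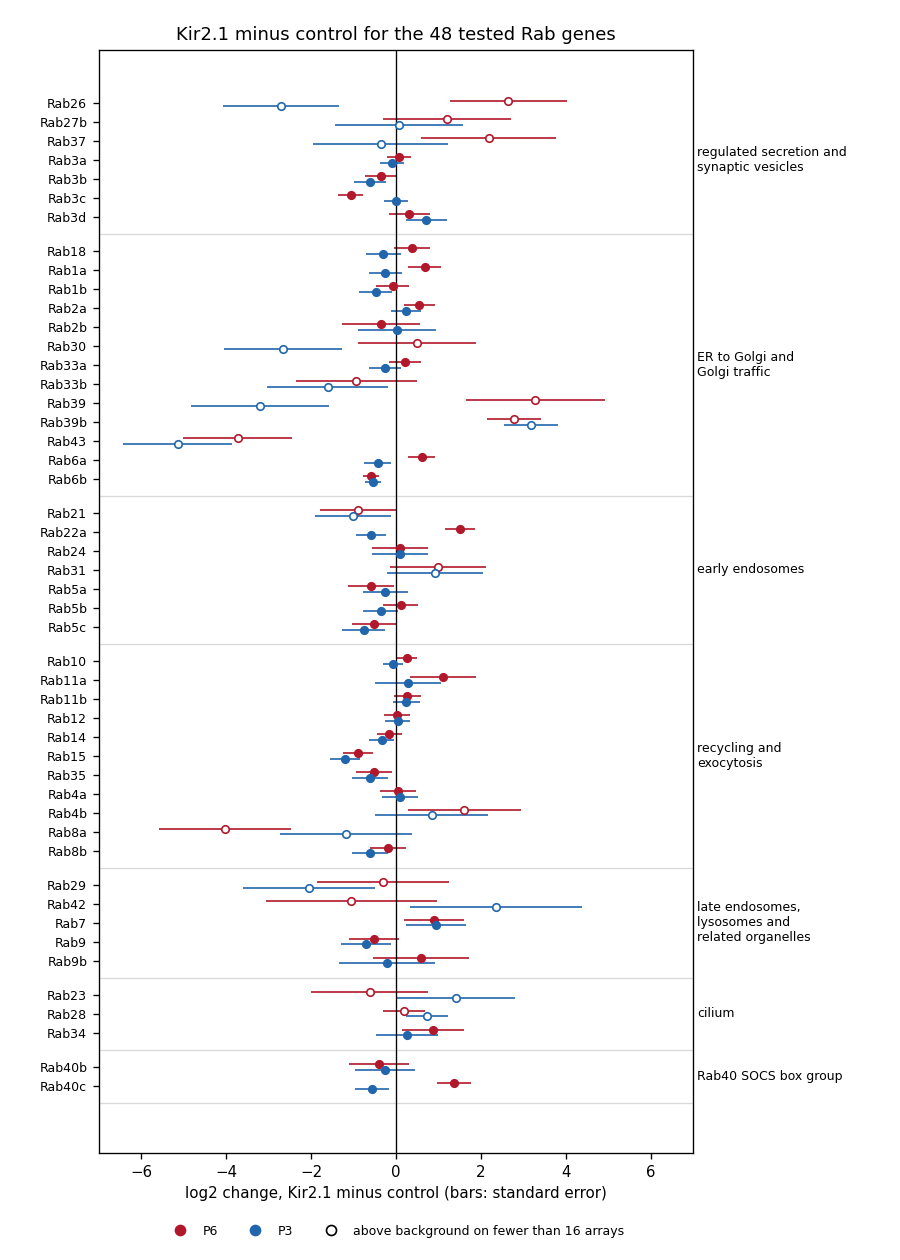
Log2 change of Kir2.1 minus control (x axis) for the 48 tested Rab genes (rows, grouped by role), at P6 (red) and P3 (blue). Bars are standard errors of the fit, and open points mark genes above background on fewer than 16 arrays. Most filled points lie within 1 log2 unit of 0, and the changes beyond 2 units belong to open points.

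Rab39b is an X-linked neuronal Rab whose loss causes intellectual disability and early parkinsonism in humans. Among the tested Rab genes it had the lowest p for Kir2.1 against control at P6, at P3 and over both ages. Its level was -7.57, -7.13, -6.47 and -6.12 in the 4 P6 Kir2.1 pools, against -9.57, -9.38, -9.72 and -9.77 in the P6 control pools. At P3 it was -4.78, -4.21, -5.12 and -5.82 in Kir2.1 pools, against -6.62, -9.75, -6.95 and -9.31 in control pools. Every Kir2.1 pool lay above every control pool of its age. The probe was well above background on all 8 Kir2.1 arrays, on 2 of 4 P3 control arrays and on no P6 control array. The control arrays alone would not have met the filter of at least 4 arrays. Rab39b was thus tested only through the arrays where it was high. At P6 it was higher by 2.79 (SE 0.64, adjusted p = 0.0449). Since control pools were at background there, the measured difference is at least 1.61-fold. This bound sets the mean of the Kir2.1 pools against, on each control array, the higher of the lowest signal well above background and the probe's own signal. At P3 the difference was 3.18 (SE 0.64, adjusted p = 0.154), which did not pass. Over both ages Rab39b was higher by 2.98 (SE 0.45, adjusted p = 0.0116). The call at P6 ended without any 1 of 12 of the 16 pools (adjusted p up to 0.0958), and without both P6 control pools 1 and 3 the difference was 2.76 (adjusted p = 0.135). The call over both ages held without any single pool, with an adjusted p of at most 0.0299. It also held without both of those pools, and it ended under normexp background correction with an offset of 50, where the difference was 0.43 over both ages and 0.12 at P6 (adjusted p = 0.194 and 0.761).

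Rab22a, a Rab of early endosomes that takes part in recycling cargo to the surface, was the other gene higher at P6. Its level was -2.87, -1.56, -2.56 and -2.73 in P6 Kir2.1 pools, against -3.99, -3.79, -3.75 and -4.23 in P6 control pools. The groups did not overlap, and the probe was above background on all 16 arrays. The difference was 1.51 (SE 0.35, adjusted p = 0.0488). At P3 the levels were -3.79, -3.26, -3.50 and -2.46 in Kir2.1 pools, against -3.29, -2.41, -2.35 and -2.60 in control pools, which overlapped, with a difference of -0.59 (adjusted p = 0.835). The difference between the ages' changes was 2.09 (SE 0.50, adjusted p = 0.128), so a different change at P6 and P3 was not shown. The call at P6 was a narrow one: it ended without any 1 of 15 of the 16 pools, with adjusted p up to 0.111. Without both P6 control pools 1 and 3 the difference was 1.58 (adjusted p = 0.12).

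The windows around the annotated starts of these genes differ in composition. They are shown because both genes passed at P6, and each holds 250 bases before and 50 after the start, from RefSeq on GRCm38.p6. The window of Rab39b is chrX:75578182-75578481 on the minus strand and that of Rab22a is chr2:173659595-173659894 on the plus strand. Capitals mark TATAAA in Rab39b and GGGCGG in Rab22a, on either strand; in Rab39b all 3 matches are on the opposite strand and read TTTATA.
Rab39b: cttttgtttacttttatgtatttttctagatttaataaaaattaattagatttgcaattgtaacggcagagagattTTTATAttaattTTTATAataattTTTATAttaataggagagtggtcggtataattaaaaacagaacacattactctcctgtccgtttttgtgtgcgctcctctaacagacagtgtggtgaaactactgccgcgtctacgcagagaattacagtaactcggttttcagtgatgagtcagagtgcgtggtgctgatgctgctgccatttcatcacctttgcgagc
Rab22a: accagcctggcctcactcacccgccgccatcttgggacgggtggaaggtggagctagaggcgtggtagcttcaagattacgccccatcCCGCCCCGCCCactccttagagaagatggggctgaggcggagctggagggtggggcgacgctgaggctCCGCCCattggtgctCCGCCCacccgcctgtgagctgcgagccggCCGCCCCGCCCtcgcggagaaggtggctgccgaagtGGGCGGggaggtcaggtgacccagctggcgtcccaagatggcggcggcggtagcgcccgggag
The Rab39b window has a GC content of 35.7%, and 4.3% of all 32851 windows have less. The Rab22a window has 70.7%, and 91.4% of windows have less. TATAAA occurs 3 times in Rab39b, starting 174, 162 and 150 bases before the start, and in 13.6% of all windows. GGGCGG occurs 7 times in Rab22a, not in Rab39b, and in 35.7% of all windows and 68.3% of the 60 Rab windows. In all, 7 motifs were searched on both strands. TGACGTCA (1.79% of all windows), TGACG, which lies within it (20.8%), CACGTG (7.15%) and a MEF2-like motif, CTA and TAG with 4 bases between them (3.69%), occur in neither window. TGANTCA (7.81%) occurs in Rab39b, and was added to the search after that window had been read. Promoter windows were found for 48 of the 57 Rab genes.

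Rab43, a Rab of traffic between endoplasmic reticulum and Golgi, was the 1 member that fell over both ages. Its level was -7.08, -2.54, -4.31 and -8.55 in P6 Kir2.1 pools, against -2.25, -1.14, -2.94 and -1.25 in P6 control pools. At P3 it was -3.72, -9.68, -7.59 and -7.14 in Kir2.1 pools, against -2.88, -1.04, -1.67 and -1.97 in control pools. Kir2.1 pools scattered over several log2 units while control pools lay close together, and 1 Kir2.1 pool at P6 overlapped with the control pools. Over both ages Rab43 fell by 4.43 (SE 0.91, adjusted p = 0.0425), with changes of -5.14 at P3 (adjusted p = 0.366) and -3.73 at P6 (adjusted p = 0.15). Its second probe was above background on 4 arrays only and gave a change of 0.59 over both ages (adjusted p = 0.796, probes fitted one by one). The call ended without any 1 of 13 of the 16 pools (adjusted p up to 0.0884), without both P6 control pools 1 and 3 (-4.78, adjusted p = 0.0583) and for the mean of both probes (-1.92, adjusted p = 0.268).

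Rab15 and Rab6b were lower with Kir2.1 in every pool at both ages without passing. Rab15, a Rab of early and recycling endosomes that is abundant in neurons, had levels of 0.33, 0.44, -0.50 and 0.27 in P6 Kir2.1 pools, against 0.59, 0.93, 1.90 and 0.68 in P6 control pools. Its P3 levels were -1.16, -0.91, -1.69 and -0.56 in Kir2.1 pools, against 0.24, -0.46, 0.27 and 0.42 in control pools. The difference over both ages was -1.05 (SE 0.25, adjusted p = 0.0787), with -0.89 at P6 (adjusted p = 0.214) and -1.20 at P3 (adjusted p = 0.498). Rab6b, the neuronal isoform of the Golgi Rab6, had the smallest spread of all members, with a pooled SD of 0.17. Its levels were 1.23, 1.25, 1.26 and 1.57 in P6 Kir2.1 pools, against 1.84, 1.69, 2.06 and 2.07 in P6 control pools. At P3 they were 0.90, 1.16, 1.01 and 1.23 in Kir2.1 pools, against 1.36, 1.70, 1.72 and 1.69 in control pools. The difference was -0.56 over both ages (SE 0.14, adjusted p = 0.0787), with -0.59 at P6 and -0.54 at P3. Under normexp Rab6b passed over both ages (-0.55, adjusted p = 0.0384). Groups did not overlap in 7 of 48 Rab genes at P6 (14.6%, against 8.89% of all features) and in 5 at P3 (10.4%, against 6.8%).

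**Figure D2:**
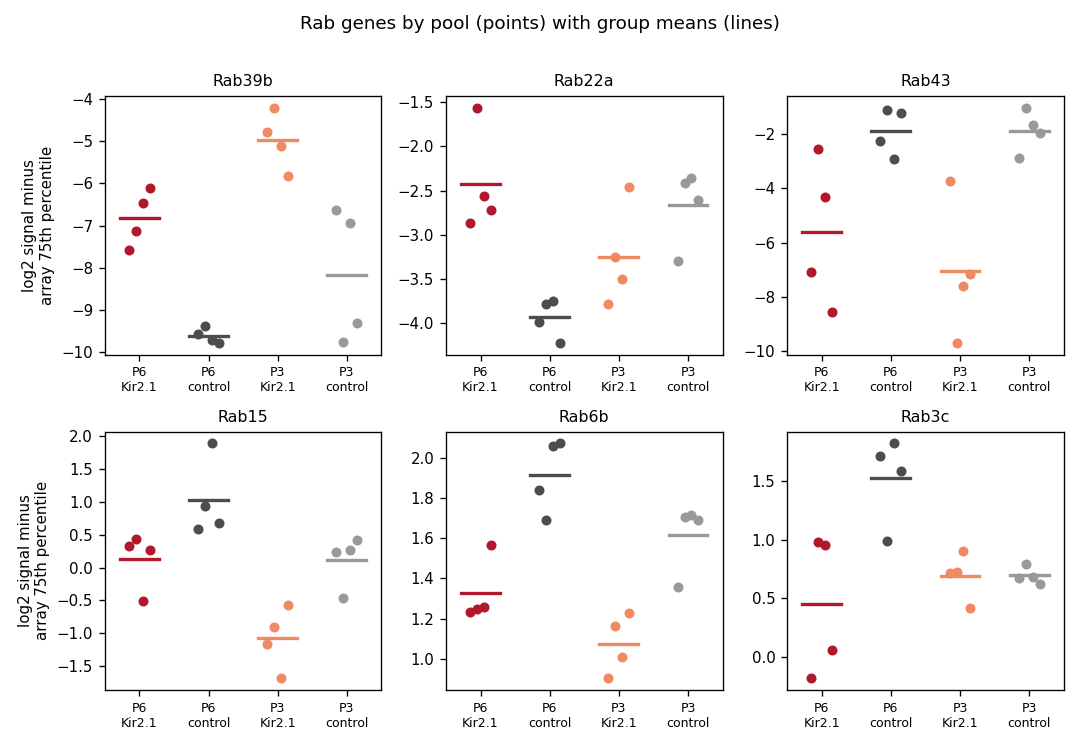
Levels of 6 Rab genes (y axis, log2 signal minus the array's 75th percentile, scaled per panel) in the pools of each group (x axis). Points are pools, lines are means of 4 pools. Rab39b, Rab15 and Rab6b separate Kir2.1 from control at both ages, Rab22a and Rab3c at P6, and Rab43 at P3.

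Of 7 tested Rabs of regulated secretion and synaptic vesicles, 0 passed at P6 with limma, where 1.76% of all features did. At an unadjusted p under 0.05 there was 1 member, where 17.5% of all features stood out. Rab3c, a Rab of synaptic vesicles, was that member. Its level was -0.18, 0.97, 0.95 and 0.06 in P6 Kir2.1 pools, against 1.71, 0.99, 1.82 and 1.58 in P6 control pools, and the groups did not overlap, though by a narrow margin. The difference was -1.07 (SE 0.29, adjusted p = 0.0756), and a second bright probe gave -1.02 (adjusted p = 0.11). At P3 the levels were 0.71, 0.72, 0.90 and 0.42 in Kir2.1 pools, against 0.68, 0.79, 0.69 and 0.63 in control pools, with a difference of 0.00. Rab3a, the main Rab of synaptic vesicles, averaged 1.90 ± 0.34 in P6 Kir2.1 and 1.84 ± 0.48 in P6 control pools (SD, n = 4 each), a difference of 0.06 (SE 0.28, adjusted p = 0.938). Rab3b, its close relative, averaged 1.72 ± 0.82 and 2.07 ± 0.23 in the same groups, and at P3 1.43 ± 0.35 in Kir2.1 and 2.04 ± 0.45 in control pools, where the pools did not overlap (difference -0.61, adjusted p = 0.841). Rab3d, known from secretory granules, differed by 0.52 over both ages (adjusted p = 0.55).

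Rab26, a Rab of secretory and synaptic vesicles linked to autophagy, had the lowest p of all members with age. Its level was 0.77, -0.62, 0.91 and -0.38 in P6 Kir2.1 pools, against -9.64, -3.31, -3.35 and -7.74 in P3 Kir2.1 pools. The P6 pools were all higher, and the P3 pools spread over 6 units with 2 of 4 above background. The difference was 6.18 (SE 1.38, adjusted p = 0.0559), which did not pass. In control cells the levels were -1.34, -1.10, -4.87 and -2.59 at P6, against -3.10, -5.89, -1.97 and -2.24 at P3, with a difference of 0.83 (adjusted p = 0.804). The change with Kir2.1 was 2.65 at P6 (adjusted p = 0.34) and -2.71 at P3 (adjusted p = 0.804), and the difference between these was 5.35 (adjusted p = 0.328).

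Rabs of the Golgi and the endoplasmic reticulum held both Rab39b and Rab43. Of the other 11 tested members, 0 passed in any of the 6 comparisons with limma, where 0.00949% to 2.59% of all features did per comparison. Rab6a, the widely expressed Golgi Rab6, averaged 1.24 ± 0.56 in P6 Kir2.1 and 0.64 ± 0.42 in P6 control pools (difference 0.60, adjusted p = 0.349). Rab2a, which acts between endoplasmic reticulum and Golgi, averaged 0.49 ± 0.23 and -0.06 ± 0.86 in the same groups (difference 0.55, adjusted p = 0.449). Rab33b, a Golgi Rab linked to autophagy, was scattered and averaged -5.38 ± 2.69 and -4.44 ± 2.44. Rab39, the relative of Rab39b, was scattered as well: -2.37, -5.05, -2.97 and -5.31 in P6 Kir2.1 pools, against -6.32, -9.37, -9.70 and -3.44 in P6 control pools. At P3 it was -9.86, -3.70, -6.56 and -9.55 in Kir2.1 pools, against -2.25, -7.09, -2.69 and -4.83 in control pools. Pools overlapped at both ages, and the difference between the changes at P6 and P3, 6.49 (SE 2.31), did not pass (adjusted p = 0.317).

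At early endosomes, Rab22a was the 1 of 7 tested members that passed at P6, where 1.76% of all features did. Rab5b and Rab5c, which drive fusion of early endosomes, differed at P6 by 0.11 (adjusted p = 0.925) and -0.52 (adjusted p = 0.642). Rab21, which traffics integrins, averaged -4.31 ± 1.31 in P6 Kir2.1 and -3.41 ± 0.97 in P6 control pools. Rab24, linked to autophagy, averaged -0.77 ± 1.03 and -0.86 ± 1.03 in the same groups. Among 11 tested Rabs of recycling and exocytosis 0 passed in any comparison, where 0.00949% to 2.59% of all features did per comparison. Rab10 and Rab11b, of exocytosis and of recycling endosomes, were steady across groups by the probes that stood for them. Their changes at P6 were 0.27 (SE 0.23) and 0.26 (SE 0.32). A second probe of Rab10, also above background on all 16 arrays, gave -2.57 at P6 (adjusted p = 0.261 with limma, probes fitted one by one). Rab35, of fast recycling, averaged -1.96 ± 0.21 in P6 Kir2.1 and -1.44 ± 0.72 in P6 control pools (difference -0.52, adjusted p = 0.56). Rab8a, of exocytosis and cilia, had 2 P6 Kir2.1 pools at -10.03 and -10.18 and 2 at -4.12 and -2.86, against -1.47, -2.62, -3.43 and -3.56 in P6 control pools (difference -4.03, adjusted p = 0.202).

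Late endosomal and lysosomal members did not pass in any comparison, where 0.00949% to 2.59% of all features did per comparison. Rab7, the Rab of late endosomes, averaged -3.62 ± 1.07 in P6 Kir2.1 and -4.52 ± 1.57 in P6 control pools, and -3.11 ± 0.54 in P3 Kir2.1 and -4.05 ± 0.65 in P3 control pools, with a difference of 0.92 over both ages (adjusted p = 0.447). Rab9, of transport from late endosomes back to the Golgi, differed by -0.61 over both ages (adjusted p = 0.561), and its relative Rab9b by 0.19 (adjusted p = 0.943). Of the ciliary members, Rab34 averaged -1.30 ± 1.71 in P6 Kir2.1 and -2.17 ± 0.75 in P6 control pools. Rab23, an inhibitor of hedgehog signalling, averaged -8.05 ± 1.22 and -7.43 ± 2.69 in the same groups. Neither passed.

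Rab40c and Rab40b carry a SOCS box, by which they join ubiquitin ligases. Rab40c had levels of 0.63, 0.63, 0.80 and 1.21 in P6 Kir2.1 pools, against 0.42, 0.10, -1.34 and -1.36 in P6 control pools. At P3 they were -0.31, -0.05, -1.09 and -0.34 in Kir2.1 pools, against 0.33, -0.29, 0.16 and 0.26 in control pools. Its P6 Kir2.1 pools lay above all pools of the other 3 groups. The change with Kir2.1 at P6 was 1.37 (SE 0.40, adjusted p = 0.0962), that with age in Kir2.1 cells 1.27 (adjusted p = 0.155), and the difference between the changes at P6 and P3 1.93 (SE 0.57, adjusted p = 0.225). Rab40b averaged -3.87 ± 1.43 in P6 Kir2.1, -3.47 ± 0.50 in P6 control, -5.66 ± 0.88 in P3 Kir2.1 and -5.41 ± 1.10 in P3 control pools, and its difference between P6 and P3 was 1.79 in Kir2.1 cells (adjusted p = 0.247) and 1.94 in control cells (adjusted p = 0.162).

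With age, 0 of 48 Rab genes passed with limma in Kir2.1 cells (0.878% of all features did, 0.403% higher and 0.475% lower) and 0 in control cells (2.59% of all features did, 1.33% higher and 1.25% lower). At an unadjusted p under 0.05 there were 8 members in Kir2.1 cells (16.7% against 15% of all features) and 7 in control cells (14.6% against 17.9% of all features). Rab15 was higher at P6 than at P3 in every pool of both kinds of cell, by 1.21 in Kir2.1 cells (adjusted p = 0.129) and by 0.91 in control cells (adjusted p = 0.196). Rab28, a Rab of cilia, was at -5.32, -6.65, -6.43 and -6.52 in P6 control pools, against -8.11, -8.55, -7.21 and -7.21 in P3 control pools (difference 1.54, adjusted p = 0.117). Rab22a was lower in all P6 than in all P3 control pools (-1.27, adjusted p = 0.0758) and Rab3c higher (0.83, adjusted p = 0.15). For the difference between the changes with Kir2.1 at P6 and P3, 0 of 48 passed with limma (0.0902% of all features did, 0.0427% higher and 0.0475% lower), and 6 had an unadjusted p under 0.05 (against 2251 of the 21070 features).

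The spread between pools differed among the Rab genes. The median pooled SD was 0.56 for the 32 Rab genes above background on all arrays and 2.07 for the 16 others, where the medians over all features were 0.55 and 1.77. Among the 32, changes at P6 ranged from -1.07 to 1.51. The largest P6 changes of either sign, 3.28 in Rab39 and -4.03 in Rab8a, came from scattered members and did not pass.

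**Figure D3:**
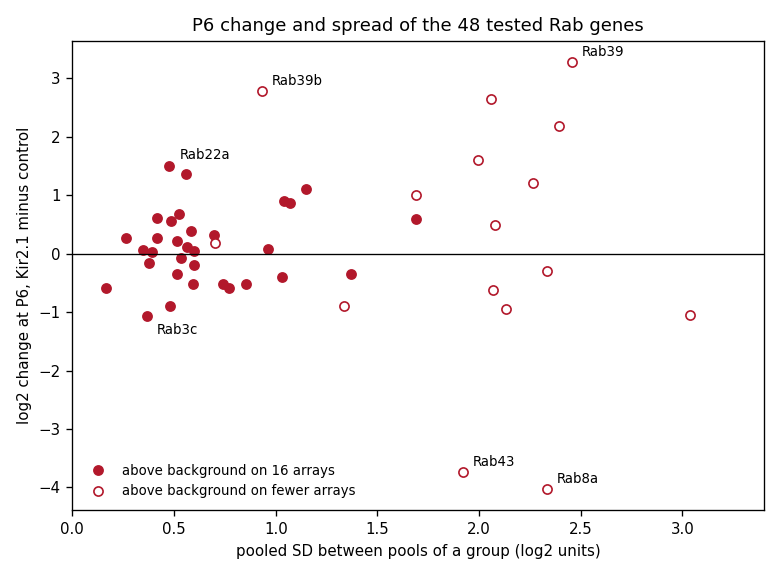
Change at P6 of Kir2.1 minus control (y axis, log2) against the pooled SD between pools of a group (x axis, log2 units) for the 48 tested Rab genes. Filled points were above background on all 16 arrays. Rab22a and Rab39b combine a change above 1.5 with an SD under 1, and Rab43, Rab8a and Rab39 lie at SDs between 1.92 and 2.46.

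Probes of the same gene did not always read alike. When the 24010 tested probes were fitted one by one, 12 Rab genes had 2 or more tested probes, 27 in all. The share of all 24010 probes that passed in this fit was not counted, so the next count has no background to be read against. At P6, 1 of these 27 probes passed, the dimmer probe of Rab8b, a Rab of exocytosis, which was singled out after its values had been seen. It was at -5.01, -7.17, -6.07 and -5.57 in P6 Kir2.1 pools, against -10.09, -9.04, -9.35 and -9.44 in P6 control pools, where it was not well above background on any array. This was a difference of 3.52 (SE 0.53, adjusted p = 0.00692), or at least 2.93-fold. The same probe was lower at P6 than at P3 in control cells, by -3.42 (adjusted p = 0.00536). The brighter probe of Rab8b, which stood for the gene, differed by -0.19 at P6 (adjusted p = 0.87). The probes of Rab9 and the 2 bright probes of Rab3c gave like changes at P6, while at P3 the Rab9 probes gave -0.70, -0.74 and -0.04. A second probe of Rab10 gave -2.57 at P6 (adjusted p = 0.261) and a second probe of Rab4a, a Rab of fast recycling, 3.07 (adjusted p = 0.173). The probes that stood for Rab10 and Rab4a gave 0.27 and 0.04. Probes also read in opposite directions for Rab8a at P6 (-4.03 and 0.53, adjusted p = 0.206 and 0.862) and for Rab3d at P3 (0.72 and -3.55, adjusted p = 0.872 and 0.821). Which transcripts each probe reads, and whether probes of close relatives cross-hybridise, was not tested.

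**Figure D4:**
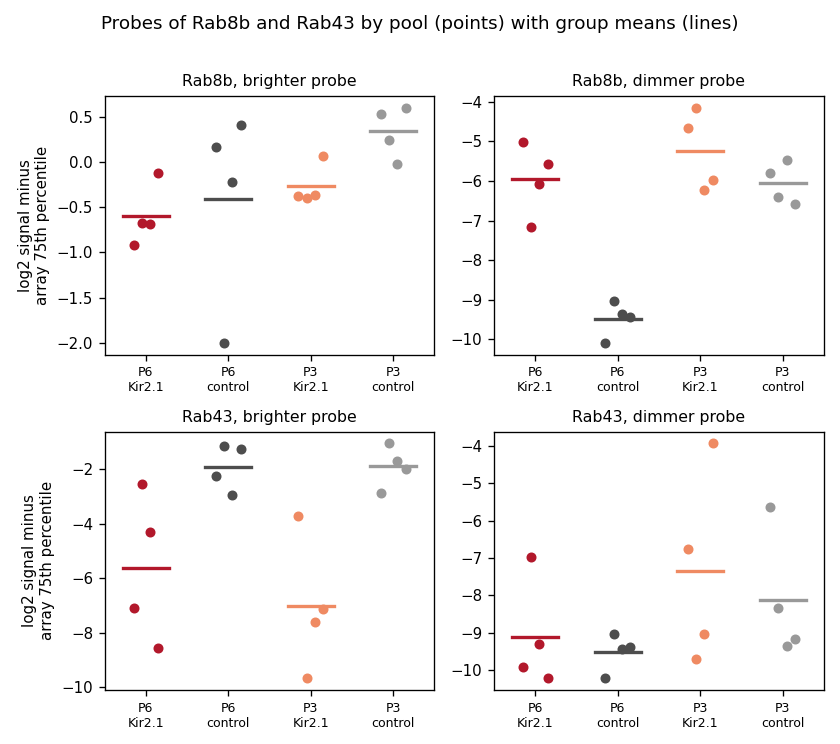
Levels of the probes of Rab8b and Rab43 (y axis, log2 signal minus the array's 75th percentile, scaled per panel) in the pools of each group (x axis). Points are pools, lines are means of 4 pools. The dimmer Rab8b probe is low in the P6 control pools alone, where the brighter one overlaps with P6 Kir2.1, and the Rab43 probes do not follow each other.

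Proteins that load, activate, switch off or bind Rabs were followed through 128 genes with a probe. Of those tested at P6, 3 rose and 2 fell with Kir2.1 (4.67%, against 1.76% of all features). At P3, 0 passed with limma, where 0.00949% of all features did. Rabggtb, a subunit of the enzyme that attaches the lipid anchors of Rabs, averaged -4.59 ± 0.26 in P6 Kir2.1 and -7.01 ± 1.08 in P6 control pools (higher by 2.42, SE 0.54, adjusted p = 0.0411). Tbc1d12, a protein with the domain of Rab GTPase activators, averaged -2.43 ± 0.47 in P6 Kir2.1 and -0.63 ± 0.23 in P6 control pools, where it fell by 1.80 (SE 0.32, adjusted p = 0.017). Rims2, an active zone protein that binds Rab3, averaged -3.53 ± 1.30 and -0.87 ± 0.25, where it fell by 2.65 (SE 0.60, adjusted p = 0.0432). Both were higher in P6 than in P3 control cells, by 2.30 for Tbc1d12 (adjusted p = 0.00313) and 3.16 for Rims2 (adjusted p = 0.0153), and in Kir2.1 cells the differences between P6 and P3 were -0.13 and -0.13. Markers of other cells differed with age in control cells as well. Of these, 10 of 10 tested interneuron markers were higher at P6 than at P3 (median 3.31, 3 called), as were 6 of 6 astrocyte and radial glia markers (median 2.49, 1 called) and 4 of 5 microglial markers (median 3.12, 0 called). Their part in the changes with age was not tested. Without P6 control pools 1 and 3 the change of Rims2 with age in control cells did not pass (3.30, adjusted p = 0.063). The difference between the changes with Kir2.1 at P6 and P3 did not pass for Tbc1d12 (-2.43, adjusted p = 0.0796) or for Rims2 (-3.29, adjusted p = 0.159). Without the 2 P6 control pools with the highest microglial scores, pools 1 and 3, the P6 change was -1.93 for Tbc1d12 (adjusted p = 0.0471) and -2.79 for Rims2 (adjusted p = 0.108).

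With age, 2 of these genes passed in Kir2.1 cells (1.87%, against 0.878% of all features) and 3 in control cells (2.8%, against 2.59%), all higher at P6. Evi5, a GTPase activator for Rab11, rose in both, by 1.99 in Kir2.1 cells (SE 0.40, adjusted p = 0.0352) and by 2.66 in control cells (SE 0.40, adjusted p = 0.0038). The call in control cells held without any single pool, while that in Kir2.1 cells ended without any 1 of 7 of the 16 pools (adjusted p up to 0.0931). Tbc1d1, a Rab GTPase activator best known from muscle, rose in Kir2.1 cells by 2.31 (SE 0.43, adjusted p = 0.0271), with 1.63 in control cells (adjusted p = 0.0619). Its call in Kir2.1 cells ended without any 1 of 6 of the 16 pools (adjusted p up to 0.0724). The genes with the lowest p of their lists at P3, none of which passed, were the exchange factor Dennd6a (-3.91, adjusted p = 0.64), the GTPase activator Tbc1d13 (-0.87, adjusted p = 0.739) and the golgin Golga2 (-2.00, adjusted p = 0.559). Lrrk1, a kinase that acts on Rabs, was above background on 4 arrays and differed by 2.07 at P6 (adjusted p = 0.502).

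**Figure D5:**
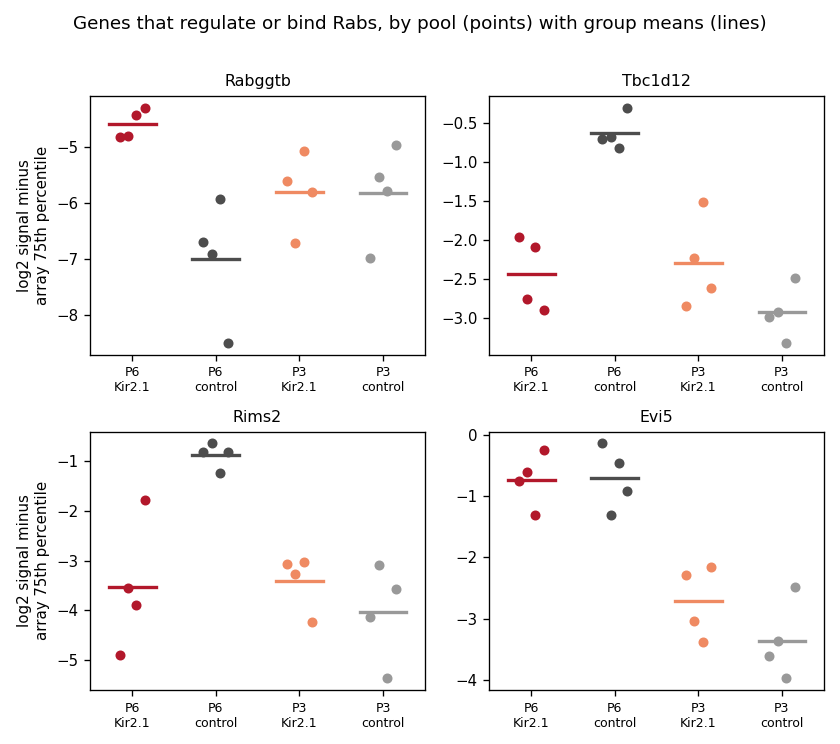
Levels of 4 genes that regulate or bind Rabs (y axis, log2 signal minus the array's 75th percentile, scaled per panel) in the pools of each group (x axis). Points are pools, lines are means of 4 pools. Rabggtb is higher in P6 Kir2.1 than in P6 control pools, Tbc1d12 and Rims2 are lower, and Evi5 is higher at P6 in both kinds of cell.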

How the data were processed

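Per the file headers, the 16 arrays are 1-colour Agilent arrays; the deposited scanner files, from Agilent Feature Extraction 10.7.3.1, hold each spot's processed intensity, linear and with background already subtracted. The value table the authors deposited holds, as set against the scanner values, this signal divided per array by its 75th percentile and, on the log2 scale, was an alternative. Outlier and control spots were left out and spots of a probe averaged. Symbols came from RefSeq accessions (GRCm38.p6). From log2 signals, the 75th percentile of the 12103 probes above background on all arrays was subtracted, array by array. Probes well above background on at least 4 arrays were kept, and the brightest stood for its gene. All arrays were fitted with limma 3.58.1 (R 4.3.3, lmFit and eBayes, 12 residual degrees of freedom). The same fit was also run on simulated data whose means and spreads came from these arrays. The number of arrays limits the precision.

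The Rab genes, role groups, regulator and marker lists were chosen with earlier results of these data known. Named with all pool values were Rab39b, members past the threshold and the 3 with the lowest p per comparison, and with group values the leading members of each role by p or signal. Regulators were named where called or lowest in p in their list; some that this rule names are not reported here. Deviations of same-numbered pools correlated at -0.0282 to 0.0308, over 0.1 in 0 of 24 pairs. This cannot show whether same-numbered pools share an animal or preparation, which the labels do not say. Replicate numbers matched the column on the slide. For normexp, the median spot signal was used, in place of the planned mean signal.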

Additional observations from a re-analysis of the deposited data

Results flagged for a closer look

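In 4 of 68 groups tested over 17 Rab genes, 1 pool stood apart from the other 3 of its group, where chance flags about 1 in 20 groups, or 3.4 of these. Rab6b was at 1.57 in P6 Kir2.1 pool 4, with the other 3 pools of the group between 1.23 and 1.26. It was at 1.36 in P3 control pool 1, with the others between 1.69 and 1.72. Both pools lay nearer to the other treatment of their age. Rab28 was at -4.78 in P6 Kir2.1 pool 1, with the others between -6.58 and -6.36, and at -5.32 in P6 control pool 1, with the others between -6.65 and -6.43.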

How the results depend on the processing

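The count of Rab genes called at P6, 2 of 48, was 0 without a filter on dim probes, with the replicate block, with array weights, in a fit of the P6 arrays alone and, chosen after seeing the data, without both P6 control pools 1 and 3. It was 0 to 1 when 1 pool at a time was left out. Under normexp it was again 2, but of other genes: Rab3c (-1.05, adjusted p = 0.0408) and Rab43 (-2.26, adjusted p = 0.0449) passed, and Rab39b and Rab22a (1.01, adjusted p = 0.0662) did not. The count over both ages, 2, was 1 without a filter, for the mean of all probes of a gene, with the replicate block and without both P6 control pools, and 1 to 2 with 1 pool left out. It was 3 under normexp, with Rab43 (-2.39, adjusted p = 0.0136) and Rab6b (-0.55, adjusted p = 0.0384) among them and Rab39b not. With age, the count of 0 became 1 in Kir2.1 cells under normexp and 0 to 1 with 1 pool left out, and 1 in control cells for the mean of all probes and 0 to 1 with 1 pool left out. At P3 and for the interaction it was 0 under every setting, also with 1 pool left out. The replicate block left Rab39b over both ages called (adjusted p = 0.0361), and ended the calls of Rab39b (adjusted p = 0.0793) and Rab22a (adjusted p = 0.0613) at P6 and of Rab43 (adjusted p = 0.104). Calls over all features at P6, 370, numbered 717 under normexp, 193 without a filter, 182 with the block, 158 with array weights and 20 in the P6 arrays alone. No called change of a Rab gene turned its sign in any setting. Among the regulators, the P6 calls of Rabggtb and Rims2 ended without 11 and 12 of the 16 pools taken 1 at a time, while that of Tbc1d12 held in each of the 16 and ended in the P6 arrays alone (adjusted p = 0.125). Those of Rabggtb and Rims2 also ended without a filter (adjusted p = 0.0694 and 0.0734), with the block (0.0698 and 0.0688), with array weights (0.0773 and 0.117) and in the P6 arrays alone (0.178 and 0.206). The calls with age in Kir2.1 cells ended with the block for Tbc1d1 and Evi5 (adjusted p = 0.0534 each) and without a filter for Evi5 (0.0505). The normexp offset lowers differences of dim probes by construction, but that setting also used another spot signal and background model. Under normexp Rabggtb differed by 0.47 at P6 (adjusted p = 0.259). The cause of these endings was not tested.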
